A study of Mus musculus with 24 samples.

Results

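Cidea, Cideb and Cidec are the 3 members of the CIDE family, and they were chosen here by gene symbol from the 41388 genes counted in mouse liver RNA. All 3 were among the 13052 genes that were over 1 CPM (counts scaled to library size) in at least 4 libraries and entered the tests. Adipocyte-specific Lpin1-knockout mice (Adn-Lpin1-/-) were compared with their littermate wild-type controls (WT), which carried the floxed Lpin1 alleles without Cre, and each genotype ate a low-fat diet (LFD, 10% of kcal from fat) or a high-fat diet (HFD, 60%). The mice were C57BL/6J males, 8 weeks of age when the diet began, and were fasted for 4 hours before the liver was taken; the labels give 16 weeks of diet and the study's methods give 5 weeks. Each of the 4 groups had 5 single-mouse libraries, which were tested, and 1 library of RNA pooled from the same 5 mice, which was set beside them and entered only 1 alternative fit. Cre was driven by the adiponectin promoter, so the deletion lay in adipocytes and liver Lpin1 is no check on genotype. Liver Lpin1 overlapped between genotypes, at 142 to 673 CPM in WT and 322 to 1195 CPM in Adn-Lpin1-/- mice on the LFD, and 137 to 556 CPM and 120 to 580 CPM on the HFD.

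CIDE proteins sit at the contact site between neighbouring lipid droplets, where they form a pore-like patch that lets triglyceride pass from the smaller droplet into the larger one until both have merged. The amino-terminal CIDE-N domain is shared with the DNA fragmentation factors Dffa and Dffb, which gave the family its name. Cidea is best known from brown adipocytes, and Cidec (also called Fsp27) from white adipocytes, where it builds the single large droplet. Cideb is the hepatocyte member and takes part in loading very-low-density lipoprotein (VLDL) with lipid. Cidea and Cidec are low in lean liver and are known to appear in fatty liver.

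Adipocyte Lpin1 loss was accompanied by far more Cidea and Cidec RNA in the liver on both diets, while Cideb differed by less than the spread between mice. Cidea rose from a few reads to a mean of 7.93 ± 9.94 CPM (SD, n = 5) on the LFD and 18.5 ± 19.1 CPM (SD, n = 5) on the HFD. Cidec rose 6.69-fold on the LFD and 7.36-fold on the HFD. Within the knockout groups the increase was uneven, and the mice with little Cidea were also those with less Cidec. Fewer cells of a type and less RNA per cell cannot be told apart in bulk tissue.

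Cidec is transcribed from 2 annotated starts on the minus strand of chromosome 6, and the deposited count sums the transcripts of both. The downstream start lies 996 bases inside the gene. Its transcript, Cidec-203, opens with a start codon that adds 10 codons in frame to the protein of Cidec-202, which begins at the upstream start. A liver form of Cidec with a longer amino terminus, under the control of the hepatic factor Creb3l3 (CREBH), is known beside the adipocyte form. The 250 bases before each start are shown because Cidec was the member that changed from a well-counted base level, and because the counts cannot say which start was used. Both are RefSeq sequence on GRCm38.p6, read 5′ to 3′ on the minus strand, and capitals mark the match to the cAMP response element TGACGTCA with at most 1 mismatch.
Cidec, before the upstream start, chr6:113435761-113436010: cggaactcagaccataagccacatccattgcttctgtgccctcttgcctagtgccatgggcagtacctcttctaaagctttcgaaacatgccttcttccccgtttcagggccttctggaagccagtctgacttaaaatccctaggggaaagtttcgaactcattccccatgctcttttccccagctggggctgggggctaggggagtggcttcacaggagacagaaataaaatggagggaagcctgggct
Cidec, before the downstream start, chr6:113434765-113435014: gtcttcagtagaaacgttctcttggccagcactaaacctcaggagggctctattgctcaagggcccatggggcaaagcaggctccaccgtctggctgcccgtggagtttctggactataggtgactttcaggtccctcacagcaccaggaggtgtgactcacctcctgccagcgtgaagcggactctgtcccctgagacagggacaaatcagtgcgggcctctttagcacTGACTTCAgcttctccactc
The match TGACTTCA, with 1 mismatch, ended 12 bases before the downstream start, and no Cidec transcript has an exon in that window. Of the 32851 RefSeq windows of 300 bases, each running past its start by 50 bases, 12.5% held such a match on either strand. No match to the nuclear receptor half-site AGGTCA (16.3% of all windows), to a direct repeat of it with 1 base between and up to 2 mismatches (DR1, 3.86%) or to the E-box CACGTG (7.15%) was found in the 300-base windows of Cidec or Cideb. A DR1 match can contain a half-site match, so these overlap. A match describes the letters only.

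A gene is called here at an adjusted p of at most 0.05. As background for the calls that follow, 14.4% of the genes tested passed between genotypes when LFD-fed and 18.6% when HFD-fed, with 6.27% and 9.87% of genes passing as higher in the knockout. Every knockout mouse was above every WT mouse in 3.89% of genes under LFD and 5.78% under HFD feeding. For genotype over both diets 32.9% passed. Diet called 1.1% of genes in WT and 2.46% in Adn-Lpin1-/- mice. The interaction called 0% of genes in edgeR, where 938 genes had an unadjusted p under 0.05; DESeq2 called 28 genes, and limma's voom called 0 without the pools and 189 with them as sixth libraries. The pools repeat the RNA of the same mice, so p-values of a fit that counts them as further libraries are too small.

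Cidea (ENSMUSG00000024526) lies on the plus strand of chromosome 18 of GRCm38, from 67343564 to 67367794, with 5 exon blocks. On the LFD the WT mice had 0, 0, 0, 0 and 4 Cidea reads, and the Adn-Lpin1-/- mice had 6, 339, 12, 437 and 1490. Scaled for library size, the knockout values were 0.114, 6.54, 0.191, 8.40 and 24.4 CPM. The groups did not overlap, but mice 1 and 3 stood hardly above the WT mouse with reads, which was at 0.0986 CPM.

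On the HFD the WT mice had 4, 0, 0, 4 and 0 reads, and the Adn-Lpin1-/- mice had 2488, 2515, 1133, 16 and 149. The knockout levels were 39.8, 37.5, 13.3, 0.276 and 1.85 CPM. The first 3 knockout mice were high, mouse 5 was intermediate, and mouse 4 was close to the WT mice, the highest of which was at 0.0770 CPM.

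Summed over mice and scaled, Cidea was 399-fold higher in knockout than in WT mice on the LFD (4 reads against 2284; exact 95% interval 156 to 1465) and 620-fold higher on the HFD (8 reads against 6301; 314 to 1436). These intervals cover counting error only. Cidea entered the tests only through knockout mice, since the highest WT mouse was at 0.0986 CPM. Without mouse 5, which held most of the knockout reads on the LFD, the LFD ratio was 177. Fitted with edgeR (quasi-likelihood, p adjusted by Benjamini-Hochberg over all 13052 genes), the log2 fold change was 8.45 (SE 1.92, adjusted p = 0.00643) on the LFD and 9.22 (SE 1.71, adjusted p = 0.00143) on the HFD. Such fitted values depend on the few WT reads, and the LFD value was 11.80 without WT mouse 5 and 7.39 without knockout mouse 5; the HFD value was 9.83 and 9.85 without WT mice 1 and 4 in turn. An exact two-sided permutation test on log2(CPM + 0.5) gave p = 0.00794 on each diet, the smallest that 5 against 5 mice allow; with any 1 WT mouse left out, p on the LFD was 0.0556. With limma's voom and library quality weights the LFD change was 6.70 and no longer passed (adjusted p = 0.127). Over all alternative fits the LFD adjusted p ran from 1.94e-05 to 0.127. The HFD change passed with voom (8.26, adjusted p = 0.0404), with a range over the fits from 7.08e-07 to 0.0404. Voom with quality weights is the fit that the study describes, and the study counted 6 libraries per group.

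The diet contrast of Cidea did not pass in knockout mice. The HFD value was 1.22 higher on the log2 scale (SE 0.96, 95% interval -0.82 to 3.26, edgeR adjusted p = 0.578). Each WT mouse had 0 or 4 Cidea reads, at or near the floor of 3 reads, so no fold between diets and no interaction was computed for it.

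**Figure D1:**
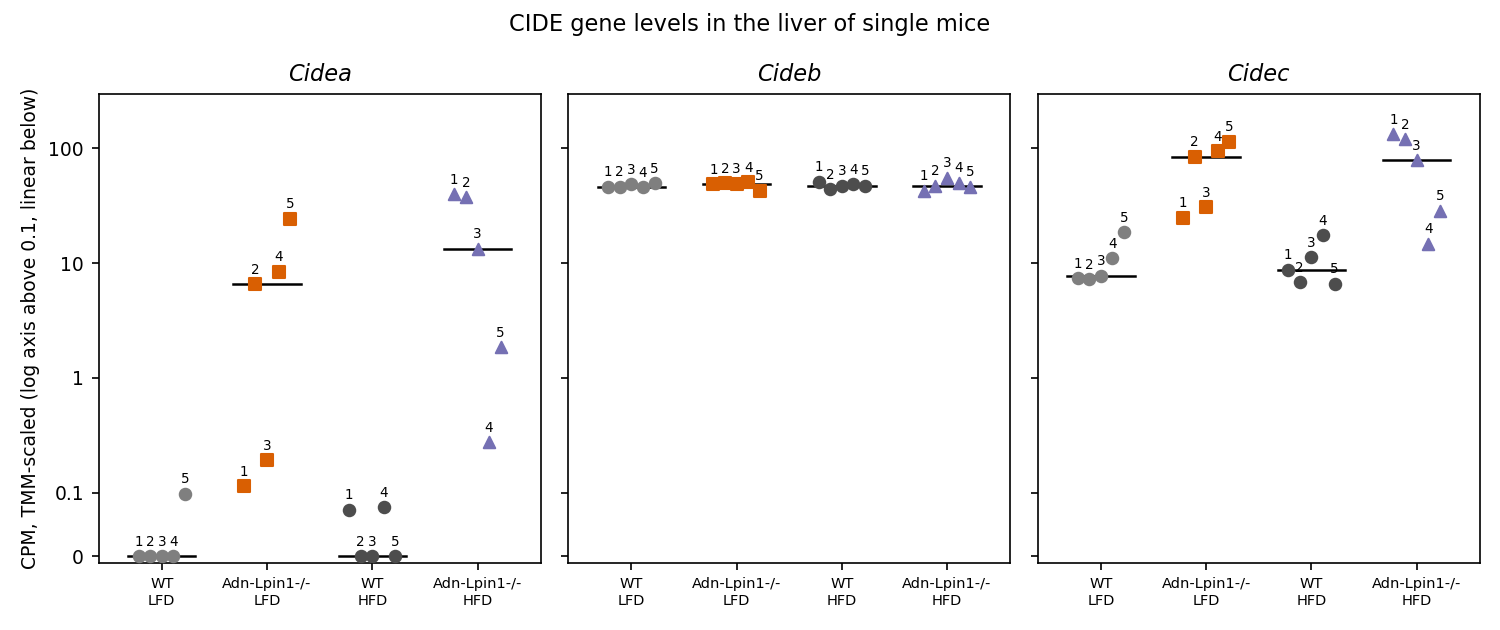
Each point is 1 mouse, labelled with its number, and the y axis gives the TMM-scaled CPM of Cidea, Cideb and Cidec on an axis that is logarithmic above 0.1 and linear below; bars are medians of 5 mice. Cidea spans 0.114 to 24.4 CPM in LFD-fed and 0.276 to 39.8 CPM in HFD-fed Adn-Lpin1-/- mice, Cideb is level across all 20 mice, and knockout mouse 4 on the HFD (14.8 CPM) lies within the WT range of Cidec.

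Cidec (ENSMUSG00000030278, chromosome 6, 113424634 to 113435760, 7 exon blocks) was measurable in every mouse. LFD-fed WT mice had 7.41, 7.22, 7.77, 10.97 and 18.6 CPM, and Adn-Lpin1-/- mice had 24.8, 84.3, 30.8, 94.2 and 114 CPM. Every knockout mouse was above every WT mouse on this diet. In HFD-fed mice the WT values were 8.75, 6.79, 11.3, 17.5 and 6.63 CPM, and the knockout values were 133, 119, 79.1, 14.8 and 28.6 CPM. Here knockout mouse 4 was below WT mouse 4, and the other 4 knockout mice were above all WT mice.

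Between genotypes, Cidec differed by 2.74 on the log2 scale (SE 0.54, edgeR adjusted p = 0.00241) under LFD feeding and by 2.88 (SE 0.54, adjusted p = 0.00159) under HFD feeding, and by 2.81 (SE 0.38, adjusted p = 2.62e-05) over both diets. Exact permutation tests gave p = 0.00794 on the LFD and p = 0.0159 on the HFD. Neither diet contrast passed: the HFD differed from the LFD by -0.030 (SE 0.52, edgeR adjusted p = 0.985) in WT and by 0.11 (SE 0.50, adjusted p = 0.946) in Adn-Lpin1-/- mice. The genotype change itself differed between diets by 0.14 (SE 0.72, 95% interval -1.40 to 1.67, edgeR adjusted p = 0.988), a wide interval.

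Cideb (ENSMUSG00000022219, minus strand of chromosome 14, 55754045 to 55758458, 4 exon blocks) was the steady member. Its level was 46.2, 46.1, 48.5, 45.8 and 49.7 CPM in WT and 48.4, 49.4, 49.2, 50.5 and 42.5 CPM in Adn-Lpin1-/- mice on the LFD. On the HFD the WT mice had 51.0, 44.2, 47.2, 48.7 and 47.0 CPM and the knockout mice had 42.8, 47.3, 55.5, 50.1 and 46.2 CPM. The groups overlapped on both diets.

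The log2 fold change of Cideb between genotypes was 0.023 on the LFD (SE 0.065, 95% interval -0.12 to 0.16, edgeR adjusted p = 0.853) and 0.022 on the HFD (SE 0.065, -0.12 to 0.16, adjusted p = 0.837). Between diets it differed by 0.012 in WT and 0.011 in knockout mice (edgeR adjusted p = 0.951 and 0.957), and the interaction was -0.00072 (SE 0.092, edgeR adjusted p = 0.998). Exact permutation tests gave p = 0.714 and p = 0.810. Scaled on the total count instead, the difference was 0.12 (exact p = 0.0476) on the LFD and 0.14 (exact p = 0.0317) on the HFD. The same scaling moved the median difference of all genes tested by 0.089 and 0.12, to 0.096 and 0.12.

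Most of Cideb is shared with a gene on the other strand. Of its 1493 exon bases, 1141 (76.4%) lie on the opposite strand from exons of Nop9, a nucleolar protein gene, and 352 are its own. All 19 protein-coding genes of 300 or more bases that lie wholly inside exons of an opposite-strand gene had 0 reads in the 20 mice, against 16.8% of the 16615 such genes with no overlap. Of the 29 genes that lie over 90% inside such exons, 25 had 0 reads. Cideb is overlapped only in part, and whether its reads come from the unshared bases alone was not tested. The study counted unambiguous reads, but the strand setting of the counting is not given in the sources used here. If reads of shared bases were dropped, levels per length over all 1493 bases are too low for Cideb. Nop9 itself was at 13.4 to 20.7 CPM over the 20 mice, and its genotype difference was -0.043 (edgeR adjusted p = 0.796) on the LFD and -0.16 (adjusted p = 0.240) on the HFD. Cidea shares 20 exon bases with the antisense transcript B430212C06Rik, and Cidec shares none with another gene.

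Levels of different genes can be compared only per length, as CPM per kb of exon. Taking the exon length of the gene model, Cideb was the most abundant member in WT liver (31.6 ± 1.16 on the LFD and 31.9 ± 1.66 on the HFD, SD, n = 5), followed by Cidec (5.597 ± 2.60 and 5.49 ± 2.42), with Cidea last (0.0169 ± 0.0379 and 0.0258 ± 0.0353). No WT mouse broke that order. In Adn-Lpin1-/- mice the means of Cidec (37.5 ± 21.3 and 40.4 ± 28.4) and Cideb (32.2 ± 2.11 and 32.4 ± 3.18) differed by less than the SD of Cidec. Cidea reached 6.82 ± 8.54 and 15.9 ± 16.4 CPM per kb and stayed below Cidec in each knockout mouse.

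Among the 13052 genes, by mean level per length, Cidec moved from rank 5232 in WT to rank 1231 in Adn-Lpin1-/- mice on the LFD, and from 5333 to 1148 on the HFD. Cidea moved from rank 13051 to 4639 and to 2410. Its WT rank near the end is no result, since a gene this low in WT entered only through knockout mice. Cideb ranked between 1378 and 1447 in all groups. When the Cideb count was divided by its 352 unshared bases alone, its level was 134 to 137 CPM per kb in the 4 groups, and it ranked above Cidec in the means of all groups.

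The make-up of the family changed accordingly. Cideb made up 76.7 to 88.8% of the summed CPM per kb of the 3 genes in LFD-fed WT mice and 77.4 to 89.8% in HFD-fed WT mice. It made up 25.7 to 70.6% and 21.3 to 80.4% in Adn-Lpin1-/- mice. Cidea contributed at most 0.195% in a WT mouse, but up to 18.95% on the LFD and 25.4% on the HFD in a knockout mouse. With the unshared bases as the Cideb length, the Cideb share was 93.3 to 97.4% in WT and 53.5 to 94.6% in Adn-Lpin1-/- mice.

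**Figure D2:**
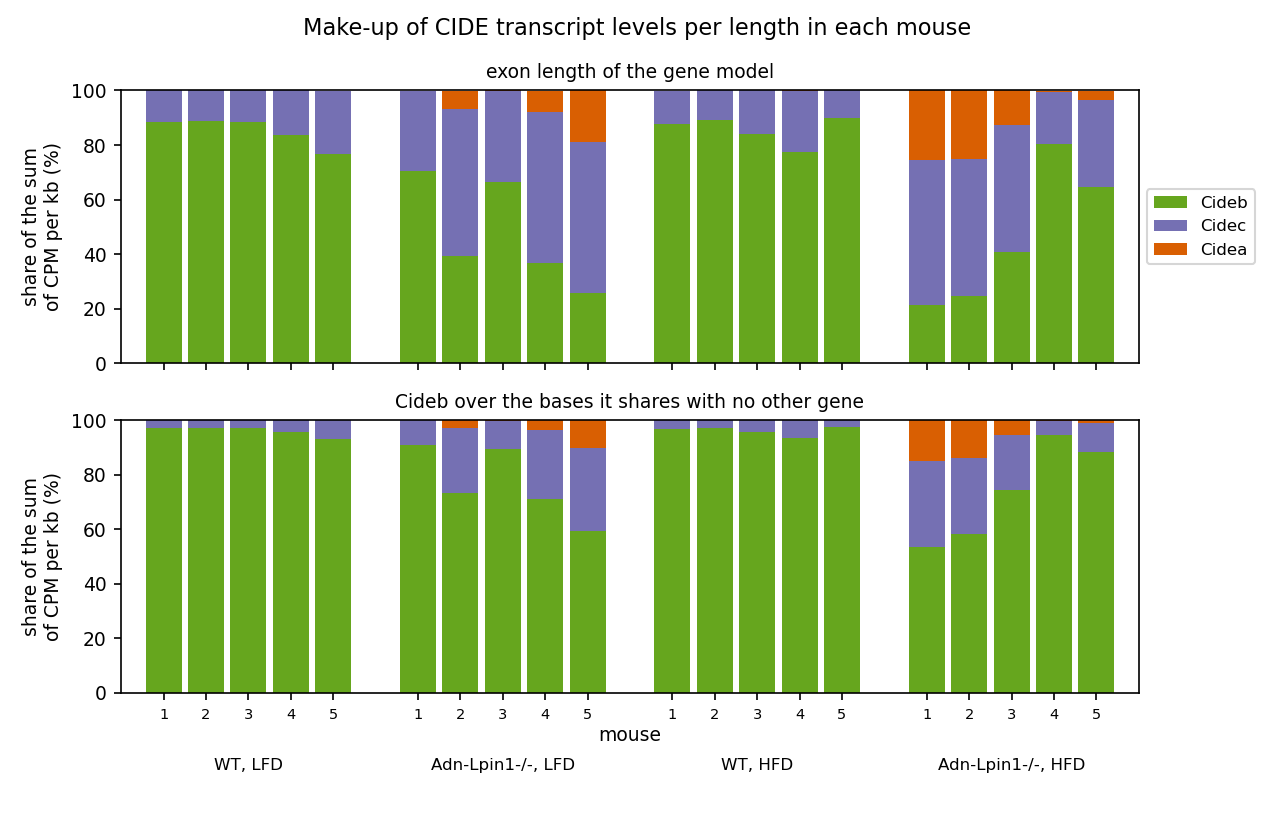
Stacked bars give each mouse's share, in percent, of the summed CPM per kb of Cideb, Cidec and Cidea, with the exon length of the gene model above and with only the unshared bases of Cideb below. Cideb makes up at least 76.7% of the bar in every WT mouse in the upper row, and in the knockout groups the bars split into those with a large Cidec and Cidea part and those close to WT.

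Knockout mice differed from one another in Cidea more than in almost any other gene. The highest of the 5 mice was 215 times the lowest on the LFD and 144 times on the HFD, and the SD of log2(CPM + 0.5) was 2.38 and 2.53. Counting Cidea itself, 1 of the 13052 genes had an SD as large on the LFD and 2 did on the HFD. The SD of Cidec was 0.55 and 0.56 in WT and 1.00 and 1.36 in knockout mice. A Cidec SD of that size was reached by 2.53% and 2.24% of genes in WT, and by 0.299% and 0.138% of genes in knockout mice. Cideb had an SD of 0.05 to 0.14, below the median gene (0.15 to 0.17) in every group.

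The 10 knockout mice ranked almost alike by Cidea and Cidec. After the mean of the diet group was removed, Pearson's r was 0.986 and Spearman's rho was 0.952 (100000 permutations, p = 4e-05 and p = 9e-05; adjusted over 4 pairs, 0.00016 and 0.00036). For all pairs of members, mice were shuffled across both diets although the diet means had been removed. These permutation p-values are therefore approximate and may be too small. Without the 2 mice farthest from the median of Cidea, r was 0.986 (n = 8, permutation p = 0.00013). All 10 mice lay on the same side of their group's mean in both genes. For each step of 1 in Cidec, Cidea changed by 2.03 on the log2(CPM + 0.5) scale.

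Cidec left a gap between 30.8 and 79.1 CPM, with 4 knockout mice below it and 6 above. In the 6 mice above it, r was 0.931 and rho was 0.943. This subset was defined after the Cidec values were seen, so the values are a description without a test. The mice below the gap were too few for a separate value. The 2 mice of lowest Cidec on the LFD were 1 and 3, and on the HFD they were 4 and 5; each diet thus held mice on both sides.

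The correlations of Cideb with the other members did not pass. Over the 10 knockout mice r was -0.357 with Cidea (rho -0.479; permutation p = 0.308 and 0.166) and -0.285 with Cidec (rho -0.394; permutation p = 0.423 and 0.263), and the latter was 0.232 without the 2 outermost mice. Over the 10 WT mice its r with Cidec was 0.499 (rho 0.539; permutation p = 0.145 and 0.115; 0.649 without 2 mice). None of these 3 passed after adjustment.

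**Figure D3:**
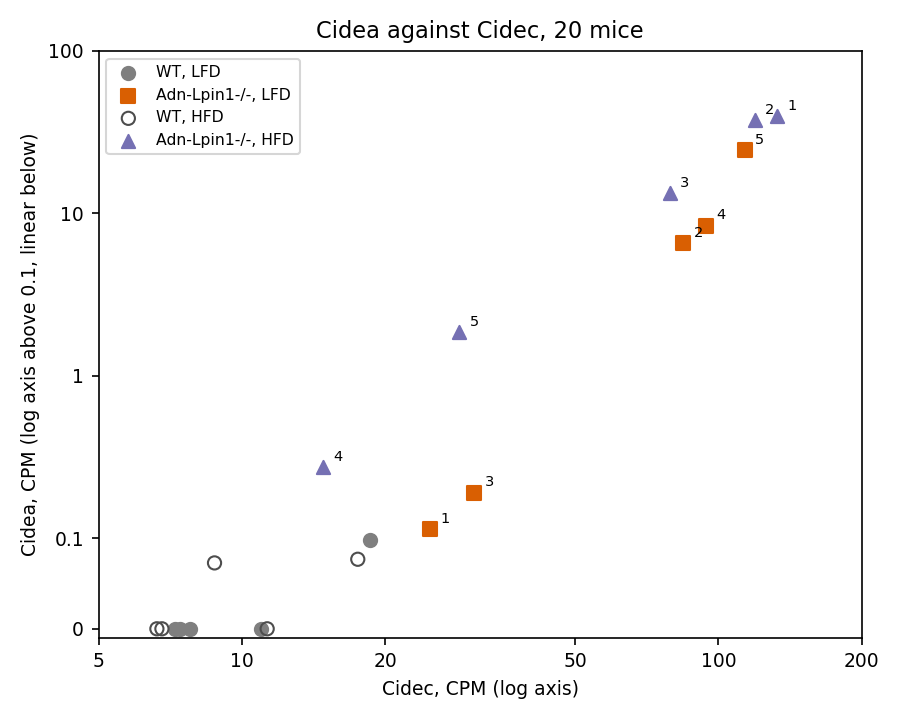
Each point is 1 of the 20 mice, with the Cidec level in CPM on a logarithmic x axis and the Cidea level in CPM on a y axis that is logarithmic above 0.1 and linear below; knockout mice carry their numbers. Knockout mice climb together from 14.8 to 133 CPM of Cidec and from 0.114 to 39.8 CPM of Cidea, and the WT mice with the most Cidec (18.6 and 17.5 CPM) are 2 of the 3 WT mice with any Cidea read.

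Pooled RNA gave a separate library of each group. The knockout pools held 6.26 CPM of Cidea on the LFD and 18.99 on the HFD, against means of 7.92 and 18.5 over the 5 mice when scaled together with the pools. Cidec in the pools was 0.930 to 1.03 times the mean of the mice, and Cideb was 0.896 to 0.989 times.

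The genes whose pattern over the 10 knockout mice was most like that of each member are given by Pearson's r of log2(CPM + 0.5) less the diet group mean, as a description without a test. Apart from Cidec (0.986), those most like Cidea were Lgals1 (galectin 1, r = 0.991, above Cidec), Vnn1 (pantetheinase, 0.974), Clstn3 (calsyntenin 3, 0.973), Cd36 (fatty acid uptake, 0.973) and Pnldc1 (an RNA exonuclease, 0.971). For Cidec, apart from Cidea, they were Vnn1 (0.985), the phospholipid flippase gene Atp9a (0.977), the zinc transporter gene Slc39a9 (0.974), the growth kinase gene Mtor (0.971) and the bicarbonate transporter gene Slc4a4 (0.971).

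The 5 genes most like Cidea were each higher in Adn-Lpin1-/- mice over both diets, by 1.01 (Vnn1) to 1.91 (Lgals1) on the log2 scale, edgeR adjusted p at most 0.00873. Those most like Cidec were less uniform: Slc4a4 was at -0.028 (edgeR adjusted p = 0.900) and Slc39a9 at 0.12 (adjusted p = 0.142), and neither passed. Genes most like Cideb were Vps4a (0.977), Uba2 (0.903), Zswim7 (0.893), Btd (0.890) and Zfpm1 (0.887), and their r with Cideb over the 10 WT mice ranged from -0.460 to 0.188.

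**Figure D4:**
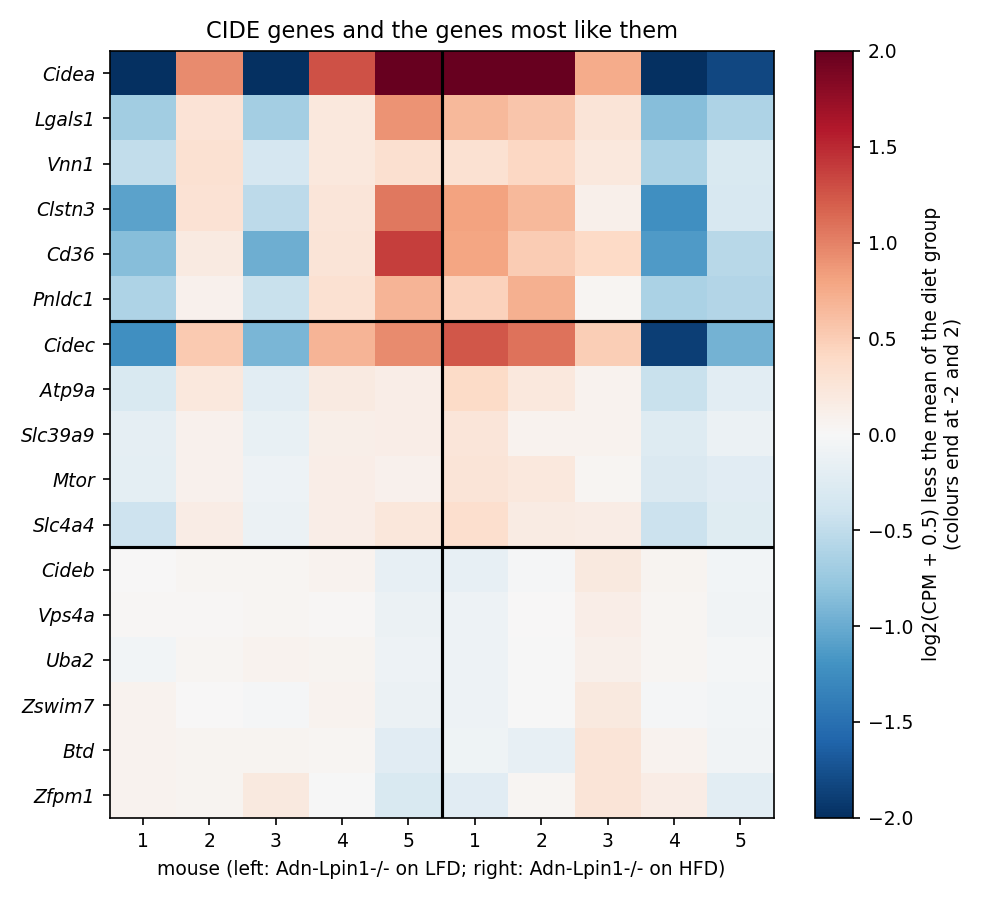
Rows are the 3 CIDE genes, each followed by the genes most like it, and columns are the 10 knockout mice, 5 per diet; colour is log2(CPM + 0.5) less the mean of the diet group, with colours ending at -2 and 2. Mice 1 and 3 on the LFD and 4 and 5 on the HFD are blue across the Cidea and Cidec blocks, and the Cideb block is nearly white.

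The antisense neighbour of Cidea, B430212C06Rik, was low (0.0519 to 0.357 CPM in WT) and reached 5.01 CPM in a knockout mouse. Its log2 fold change was 2.02 (SE 0.73, edgeR adjusted p = 0.0680) on the LFD and 3.37 (SE 0.70, adjusted p = 0.00334) on the HFD. Its r with Cidea was 0.949 over the knockout mice.

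The rest of the CIDE-N family and the fusion partners are given next. In the CIDE-N family, 2 of 5 genes rose on each diet, Cidea and Cidec (all genes: 14.4% and 18.6% called, 6.27% and 9.87% as higher). Dffa, which encodes the inhibitor of the apoptotic DNase, was at -0.044 (edgeR adjusted p = 0.809) and -0.096 (adjusted p = 0.521), and Dffb, the DNase, at 0.12 (adjusted p = 0.645) and 0.28 (adjusted p = 0.216). Plin1, the adipocyte droplet protein that activates Cidec, was read in 2 of the 10 knockout mice, at 0.0518 CPM at most, and was not tested. Of the 4 tested partners none rose, and Rab8a, a small GTPase of droplet fusion, fell by 0.16 on the HFD (SE 0.05, edgeR adjusted p = 0.0261). That call was lost without WT mouse 5 or knockout mouse 1 or 3 of that diet (edgeR adjusted p up to 0.0558). Under LFD feeding Rab8a was at -0.032 (adjusted p = 0.692).
Tbc1d4, the Rab8a GTPase-activating protein, was at 0.25 and 0.29 (edgeR adjusted p = 0.431 and 0.302), Rabif, an exchange factor, at 0.024 and 0.14 (adjusted p = 0.848 and 0.148), and Rab18 at -0.090 and -0.065 (adjusted p = 0.352 and 0.482).

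Among 18 genes of droplet coat, formation and lipolysis, 2 rose on each diet and none fell. For comparison, 6.27% and 9.87% of all genes rose on the LFD and HFD, and 14.4% and 18.6% were called in either direction. The median difference of the 18 genes was 0.23 in LFD-fed and 0.11 in HFD-fed mice on the log2 scale, against 0.0065 and 0.0023 over all genes. Plin4, a coat protein of adipocyte droplets, rose by 2.44 (SE 0.47, edgeR adjusted p = 0.00192) and 2.09 (SE 0.46, adjusted p = 0.00446). Fitm1, which helps droplets bud, rose on the LFD (1.06, adjusted p = 0.0374) and was at 0.76 on the HFD (adjusted p = 0.112). Its LFD call was lost without WT mouse 1, 2, 3 or 4 or knockout mouse 2, 4 or 5 (0.86 to 1.12, edgeR adjusted p up to 0.104). Bscl2, which encodes seipin, rose on the HFD (0.24, adjusted p = 0.00744) and was at 0.16 on the LFD (adjusted p = 0.0662).

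Of 15 tested genes of VLDL lipidation and secretion, the process in which Cideb acts, 3 fell in LFD-fed mice. In HFD-fed mice 2 fell, and none rose on either diet (all genes: 14.4% and 18.6% called in either direction). Apob, the VLDL scaffold protein, fell by 0.49 (SE 0.10, edgeR adjusted p = 0.00244) and by 0.58 (SE 0.10, adjusted p = 0.000633). Sec24a, a coat subunit of export vesicles, fell by 0.59 (adjusted p = 0.0002) and by 0.57 (adjusted p = 0.000288). Ces3a, a lipid hydrolase gene, fell by 0.36 on the LFD (adjusted p = 0.0345) and was at -0.063 on the HFD (adjusted p = 0.724). The Ces3a call was lost without WT mouse 1, 2 or 3 or knockout mouse 2, 3, 4 or 5 (-0.36 to -0.31, edgeR adjusted p up to 0.0961).

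Among 16 known regulators of CIDE genes, 1 rose and 1 fell on the LFD, and 3 fell on the HFD (all genes: 14.4% and 18.6% called in either direction). Pparg, the nuclear receptor that drives the adipocyte lipid program, was at 8.16, 1.84, 4.91, 2.76 and 9.66 CPM in WT and 9.05, 14.2, 7.64, 15.1 and 26.1 CPM in Adn-Lpin1-/- mice on the LFD. It rose 2.64-fold there (SE 0.41 on the log2 scale, edgeR adjusted p = 0.0286) and was at 0.20 under HFD feeding (SE 0.40, adjusted p = 0.766), with no test past the threshold for the difference between diets (-1.20, SE 0.57, adjusted p = 0.691). The LFD call was lost without WT mouse 2, 3 or 4 or knockout mouse 2 or 5 (log2 value down to 1.07, edgeR adjusted p up to 0.0984). The r of Pparg over the knockout mice was 0.891 with Cidea and 0.862 with Cidec, ranks 158 and 292 among the genes tested. Over the WT mice it was 0.278 with Cidea and 0.382 with Cidec. Each WT mouse had 0 or 4 Cidea reads, so the 0.278 cannot be set against the knockout value. In knockout mice Ppara was at 0.595 and 0.636, and Srebf1 at 0.296 and 0.272. Creb3l3 was at -0.524 and -0.490, and Ppargc1a at -0.612 and -0.626. No r is given here for the other listed regulators, and a link of any regulator to Cidea or Cidec was not tested. Cebpa fell by 0.31 on both diets (edgeR adjusted p = 0.0110 and 0.00959), Sp1 fell by 0.33 on the HFD (adjusted p = 0.00472) and was at -0.11 on the LFD (adjusted p = 0.322). Creb3l3 fell by 0.21 on the HFD (adjusted p = 0.0344) and was at -0.19 on the LFD (adjusted p = 0.0680), and its call was lost without WT mouse 2 or 3 or knockout mouse 1, 2, 3 or 5 (edgeR adjusted p up to 0.0851).

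Of 11 tested targets of Pparg known from fatty liver, 5 rose under each diet and none fell (all genes: 6.27% and 9.87% called as higher). Plin4 is among these targets. Mogat1, a monoacylglycerol acyltransferase, rose by 2.47 (SE 0.59, edgeR adjusted p = 0.00893) and 2.63 (SE 0.58, adjusted p = 0.00453). Pdk4, which restrains glucose oxidation, rose by 2.07 (adjusted p = 0.0211) and 1.91 (adjusted p = 0.0258), and Ucp2, a mitochondrial carrier, by 0.77 (adjusted p = 0.0343) and 1.21 (adjusted p = 0.00220). Single mice decided some of these calls. Pdk4 was not called without WT mouse 2 or 3 or knockout mouse 2 on the LFD (edgeR adjusted p up to 0.0839), nor without WT mouse 2 or 5 or knockout mouse 1 on the HFD (1.13 to 1.84, adjusted p up to 0.130). Ucp2 was not called on the LFD without WT mouse 3, 4 or 5 or knockout mouse 2 or 5 (adjusted p up to 0.107). The median over the list was 0.77 and 0.89.

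Of 22 tested apoptosis genes, 2 rose and 1 fell on the LFD and 3 rose on the HFD (all genes: 14.4% and 18.6% called in either direction). Those that moved most were Cdkn1a, a cell cycle inhibitor (2.35, edgeR adjusted p = 0.00301, and 1.83, adjusted p = 0.00958), and Bax (0.33, adjusted p = 0.00478, and 0.21, adjusted p = 0.0437). Mcl1, which protects from cell death, fell by 0.21 on the LFD (adjusted p = 0.0483) and was at -0.16 on the HFD (adjusted p = 0.109). Mdm2, the p53 ubiquitin ligase, rose by 0.24 on the HFD (adjusted p = 0.0305) and was at 0.088 on the LFD (adjusted p = 0.460). The small changes rested on single mice: the HFD call of Bax was lost when any of 14 of the 20 mice was left out, the LFD call of Mcl1 for 11 of them, and that of Mdm2 without WT mouse 2, 3 or 4 or knockout mouse 1, 2 or 3 (edgeR adjusted p up to 0.123, 0.111 and 0.0833).

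**Figure D5:**
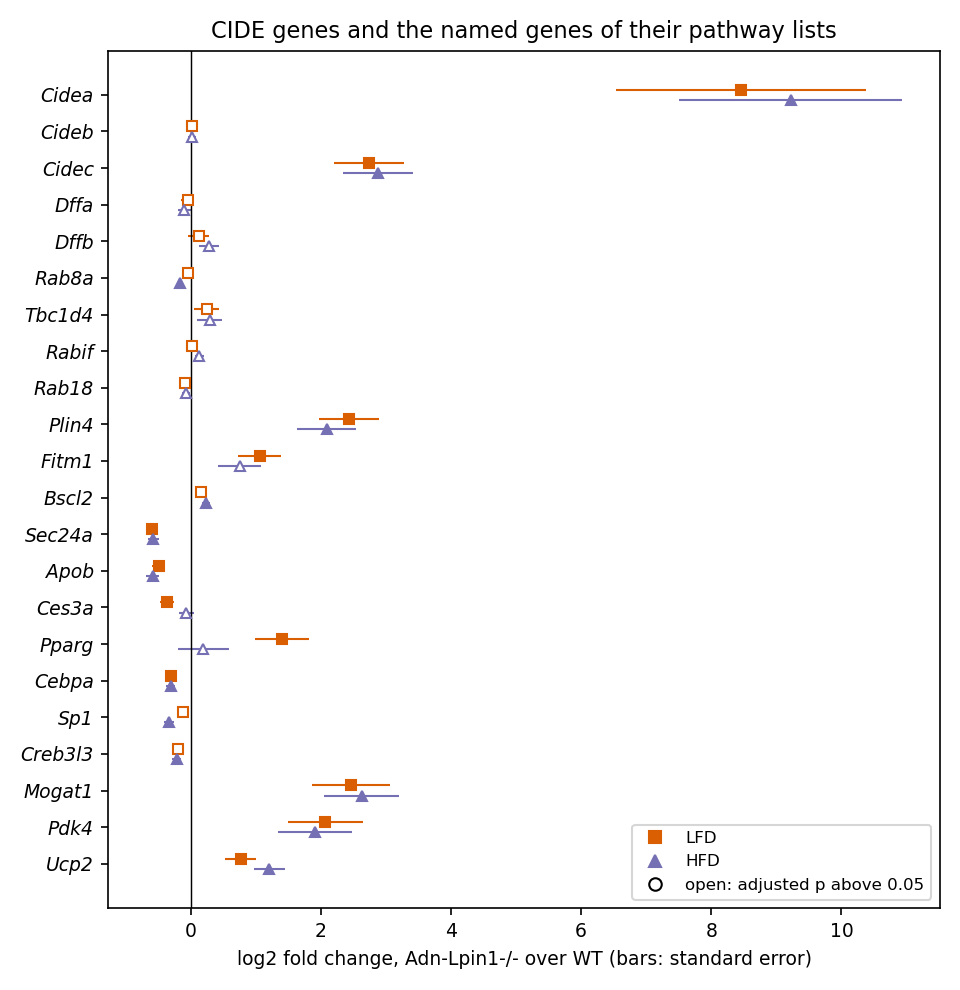
Points give the log2 fold change of Adn-Lpin1-/- over WT mice on the LFD (squares) and the HFD (triangles) with its standard error, for the CIDE-N family, the tested fusion partners and the named genes of the droplet, VLDL, regulator and Pparg target lists; open symbols did not pass. Cidea and Cidec stand to the right at 8.45 and 9.22 and at 2.74 and 2.88, while Cideb, Dffa, Dffb and the fusion partners lie between -0.16 and 0.29.

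Cidea and Cidec are adipocyte genes, so adipocyte RNA in the tissue was looked for. Adipoq was at 0 to 0.154 CPM in the 10 knockout mice, Plin1 at 0 in 8 of them, Lep at 0 in 7 and Ucp1 at 0 in 8. The library with the most Adipoq (4.32 CPM) was WT mouse 1 on the LFD. The study reports less Adipoq RNA in adipose tissue of Adn-Lpin1-/- than of WT mice. How well Adipoq gauges adipocyte RNA in knockout livers was not tested. Whether adipocyte RNA contributed to Cidea or Cidec was not tested. Summed over 10 white adipocyte markers the level was 27.3 to 36.9 CPM in WT and 32.6 to 69.6 CPM in knockout mice on the LFD, and 23.2 to 53.5 CPM and 31.9 to 232 CPM on the HFD. The markers with the most reads were Lipe (20.3 to 48.4 CPM over the 20 mice), Cfd and Trarg1 (at most 0.730 CPM).

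The other white adipocyte markers had low counts, were not tested and did not move alike. By group mean, Adipoq and Lep were lower in knockout than in WT mice on both diets. Adig, Slc7a10 and Trarg1 were higher on both, and Retn, Aoc3 and Plin1 changed direction between diets. On the LFD the knockout libraries were also deeper (total counts from 51095146, against at most 45999456 in WT). The reads of Retn and Adig, chosen after their values were seen, follow. Retn, which encodes resistin, had 2, 6, 4, 2 and 4 reads in Adn-Lpin1-/- mice and 0 in each WT mouse on the LFD, and 2, 0, 6, 0 and 0 against 0, 0, 0, 6 and 0 when HFD-fed. Adig, or adipogenin, had 26, 15, 10, 11 and 2 reads in HFD-fed knockout and 2, 0, 3, 0 and 0 in HFD-fed WT mice, and under LFD feeding 2 reads in 1 knockout mouse and 0 in the others.

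Of the 2 tested white adipocyte markers Cfd, or adipsin, rose on both diets, and Lipe was at 0.13 and 0.23 (edgeR adjusted p = 0.683 and 0.403). Cfd stood at 0.309, 0.180, 0.774, 0.182 and 2.71 CPM in WT and 1.76, 8.35, 2.97, 7.52 and 35.9 CPM in Adn-Lpin1-/- mice on the LFD. On the HFD its values were 1.39, 1.66, 7.37, 16.3 and 2.41 CPM and 146, 183, 68.5, 6.89 and 3.90 CPM. It rose by 3.76 (SE 1.18, edgeR adjusted p = 0.0376) and 3.81 (SE 1.02, adjusted p = 0.0150). The LFD call was lost without WT mouse 1, 2, 3 or 4 or knockout mouse 2 or 5 (2.62 to 3.86, adjusted p up to 0.151), and with voom and quality weights (3.93, adjusted p = 0.330). Its r with Cidea over the knockout mice was 0.923. Brown adipocyte markers summed to 9.37 to 13.9 CPM in WT and 6.34 to 13.01 CPM in knockout mice on the LFD, and 7.33 to 13.01 CPM and 6.20 to 10.97 CPM on the HFD. Adrb3, Cox7a1 and Kcnk3 had the most reads of the 8, and Adrb3 made up most of the sum. On the LFD the 2 that were tested passed in opposite directions. Cox7a1, a subunit of cytochrome oxidase, rose by 0.79 (edgeR adjusted p = 0.0318) and was at 0.59 on the HFD (adjusted p = 0.0856). Adrb3, an adrenergic receptor gene, fell by 0.83 (adjusted p = 0.0347) and was at -0.20 on the HFD (adjusted p = 0.621). The Cox7a1 call was lost without WT mouse 1 or 3 or knockout mouse 2, 3, 4 or 5 (edgeR adjusted p up to 0.0866), and that of Adrb3 without WT mouse 2, 3 or 4 or knockout mouse 1, 2, 4 or 5 (adjusted p up to 0.0932).

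Some markers of other cell types also passed between genotypes. Hepatocyte markers, 9 matched, summed to 122016 to 131536 CPM in WT and 90988 to 119646 CPM in LFD-fed knockout mice, against 114371 to 144537 CPM and 94963 to 125227 CPM when HFD-fed, and 5 of the 9 fell on the HFD. Of 6 Kupffer cell markers 4 rose on the HFD, where they summed to 108 to 142 CPM in WT and 141 to 313 CPM in knockout mice. Of 6 sinusoidal endothelium markers 2 rose on the LFD (summed, 71.2 to 123 and 98.0 to 191 CPM) and 4 on the HFD (88.3 to 132 and 138 to 159 CPM). Lipid-associated macrophage markers rose in 1 and 3 of 5 cases, and stellate cell markers in 2 and 1 of 6. No hepatocyte or Kupffer cell marker passed under LFD feeding. For comparison, 6.27% of all genes passed as higher when LFD-fed and 9.87% when HFD-fed, and 14.4% and 18.6% passed in either direction. Whether the marker counts exceed these shares was not tested. None of the 5 cholangiocyte, 2 tested T cell and 2 tested mesothelium markers passed on either diet. The part of these shifts in the CIDE values was not tested.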

How the data were processed

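Liver RNA of single mice and of pools was sequenced in 24 libraries. The authors aligned reads with STAR (2.5.1a) to GRCm38 and counted them per Ensembl gene with featureCounts (1.4.6-p5), per the labels and the study's methods. Each deposited table gives 41388 genes with a raw count, a CPM value and an RPKM value; the deposited RPKM were used only as an alternative for levels per length, and the deposited CPM only to check that RPKM is CPM per kb of the listed gene length. A table of gene IDs gave symbols for 40254 genes, gene coordinates and lengths are those of the deposited tables, gene types and transcripts came from GENCODE mouse annotation on GRCm38, and promoters came from RefSeq on GRCm38.p6.

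The 355 rRNA genes (0.265 to 0.465% of counts) were left out. The 20 single-mouse libraries, with total counts of 36260187 to 81072794, were scaled by TMM. Genes over 1 CPM in at least 4 libraries were fitted in 1 model of 4 group means with edgeR 4.0.16 (quasi-likelihood), and p was adjusted by Benjamini-Hochberg over all 13052 genes, with a threshold of 0.05. The fits were tested on simulated data first. Libraries are separate mice, and no batch is given in the sources used here. Alternatives used DESeq2 1.42.0 and limma 3.58.1, other scalings and filters, thinned counts, a replicate block, and fits that leave out 1 mouse at a time. Exact permutation tests and correlations used log2(CPM + 0.5), and intervals of ratios are exact (Clopper-Pearson).

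Named genes were the 3 members, all of the CIDE-N family and fusion partners, up to 4 called genes of each other pathway list with the largest change over both diets, the 3 adipocyte markers with the most counts, and the 5 genes most like each member; others named (Nop9, B430212C06Rik, Lpin1, further adipocyte markers) were chosen after their values were seen. The members and lists were chosen with earlier results of these data known. The length of Cideb over unshared bases and the ratio without the mouse of most reads were added after seeing the data.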

Additional observations from a re-analysis of the deposited data

Results flagged for a closer look

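Cidea in LFD-fed WT mouse 5 stood apart from the other 4 mice of its group, at 0.0986 CPM (4 reads) against 0. Cideb in LFD-fed Adn-Lpin1-/- mouse 5 was 42.5 CPM, below the other 4 mice, and this was also the mouse with the most Cidea and Cidec of its group. Both were past the 95% limit of Dixon's gap test; 12 groups of 5 values were examined and 2 passed. The limit, which chance passes in about 1 of 20 groups, says nothing for Cidea: with the other 4 mice at 0, any read in the fifth would have passed. The pooled HFD-fed WT library, which entered only the fit with pools, held 6 Cidea reads (0.114 CPM), more than the 4 reads of the highest of its mice.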

How the results depend on the processing

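Depth limits Cidea in WT mice, where 3 reads in a library correspond to 0.0514 to 0.0893 CPM, and counts cannot separate the Cidec transcripts. The genotype call of Cidec passed in every alternative fit, on each diet and over both. So did that of Cidea on the HFD and over both diets. The call of Cidea on the LFD passed in all fits but 1. Its LFD permutation test did not pass when any WT mouse was left out (exact p = 0.0556). With limma's voom and quality weights, Cidea on the LFD was 6.70 (adjusted p = 0.127). No call of Cideb, of a diet contrast of Cidec or of the diet contrast of Cidea in knockout mice appeared in any fit. The diet contrast of Cidea in WT was not examined. The cause of the changes below was not tested.

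The sources used here do not say whether same-numbered mice were paired. Their deviations from the group means correlated at -0.415 to 0.281 (median -0.0112 over 30 pairs), which cannot exclude a shared litter or cage. The replicate block served only as an alternative. It gave 8.24 and 9.51 for Cidea, 0.022 and 0.020 for Cideb and 2.70 and 2.93 for Cidec on the LFD and HFD. The block changed no call of theirs, turned Cidec by diet in WT to 0.014, and lowered the calls over all genes to 1532 and 2012. Sign changes were limited to values near 0. Cideb on the HFD was -0.044 with voom and pools and -0.00322 with filterByExpr; over both diets it was -0.021 with voom and pools; by diet in knockout mice it was -0.013 with voom and -0.046 with pools added. Cidec by diet in WT was 0.17 with voom and 0.054 with pools added, and its interaction was -0.16 with voom. Rabif on the LFD was -0.00392 with thinned counts, Nop9 there was 0.052 with voom and pools, and Slc4a4 over both diets was 8.02e-05 with voom and 0.012 with pools added. The r of Cideb with Cidec in knockout mice was 0.232 without the 2 mice farthest from the median. On the total count, the Cideb permutation differences became 0.12 (exact p = 0.0476) and 0.14 (exact p = 0.0317). Cideb per length in LFD-fed WT mice was 30.1 as deposited RPKM, and over unshared bases it was 134, 136, 135 and 137 in WT and knockout mice on the LFD and on the HFD.

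Leaving out 1 mouse at a time, the Cidea difference in the LFD permutation test ranged from 2.13 to 3.47 (exact p up to 0.0556, when any WT mouse was left out). The r of Cideb with Cidec in WT mice ranged from 0.308 to 0.696, permutation p 0.0399 (without HFD-fed mouse 1) to 0.421. For Cideb, the range was -0.032 to 0.063 on the HFD (-0.032 to 0.061 in the permutation test), -0.0042 to 0.043 over both diets, -0.011 to 0.037 by diet in WT, -0.043 to 0.052 by diet in knockout mice and -0.055 to 0.040 for the interaction. For Cidec, it was -0.31 to 0.29 by diet in WT, -0.20 to 0.37 by diet in knockout mice and -0.19 to 0.41 for the interaction. Dffa on the LFD ranged from -0.12 to 0.021, Rabif from -0.014 to 0.064, Nop9 from -0.11 to 0.019 and Slc4a4 over both diets from -0.092 to 0.084.

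Counts of list members called moved as follows. In the CIDE-N family on the LFD voom called 1. Of the fusion partners on the HFD, 0 were called without a filter or with the 2 groups alone, and 0 to 1 without a mouse (0 without WT mouse 5 or knockout mouse 1 or 3). Droplet genes on the LFD numbered 5 with voom, 11 with pools added, 1 with the replicate block and 1 to 3 without a mouse (1 without WT mouse 1, 3 or 4 or knockout mouse 2), and on the HFD 4 with pools and 2 to 4 without a mouse (4 without knockout mouse 4). VLDL genes on the HFD numbered 5 with pools. Regulators on the LFD numbered 4 with DESeq2, 6 with pools, 1 with the 2 groups alone and 1 to 3 without a mouse (1 without the mice that end the Pparg call), and on the HFD 5 with DESeq2, 6 with pools and 2 to 5 without a mouse (5 without LFD-fed WT mouse 5). Pparg targets on the LFD ranged from 3 to 6 without a mouse (3 without WT mouse 3 or knockout mouse 2). Apoptosis genes on the HFD numbered 6 with pools and 1 to 4 without a mouse (1 without WT mouse 2 or 4 or knockout mouse 2 or 3). Over all genes, the diet contrast in WT called 400 genes with DESeq2, 670 with voom, 1938 with pools added, 72 with the 2 groups alone and 90 with the replicate block, against 144. In knockout mice it called 577 with DESeq2, 2342 with voom and pools, 161 with the 2 groups alone and 214 with the block, against 321. Genotype called 4163 and 4740 genes with voom and pools, against 1877 and 2434. The pools hold RNA of the same mice, so the counts with pools rest on p-values that are too small.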
